A study of Mus musculus with 30 samples.

Results

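The 34 genes described here encode the enzymes and transporters of glycolysis together with known targets and regulators of the hypoxia-inducible factor (HIF), the transcription factor that cells use to respond to low oxygen. They were chosen by name, as glycolysis enzymes and known HIF targets, with earlier results of these data known. A share of members set beside that of all genes is therefore a description. All 34 were found among the 50764 gene models of the mouse RNA sequencing tables. The study measured polyA RNA of mouse macrophages and of stromal cells in 30 libraries, 3 for each of 10 groups, and its title names macrophages and vitamin A. In vitro samples were sorted by flow cytometry as F4/80+ (a macrophage surface protein) or PDPN+ (podoplanin, a protein of fibroblastic stroma), and no sort is given for the ex vivo samples. Macrophages, called LCM in the titles, were either ex vivo (source tag lavage), or in vitro under 1 of 5 conditions: without treatment, with ATRA (all-trans retinoic acid, the active form of vitamin A) at 1 uM, in co-culture with PDPN+ cells (tag co), in culture tagged tw, read here as transwell, or with BMS493 at 1 uM, which blocks signalling through retinoic acid receptors. PDPN+ cells, tagged om_pdpn with no further word on their tissue, had the same conditions except ex vivo and ATRA. Strain, genotype, age and number of mice are not in the labels, nor whether replicates were separate animals or cultures, so a p-value here speaks only of the spread among the libraries, which may be technical. Nor is it stated if macrophages and PDPN+ cells shared the BMS493 cultures. If they did, BMS493 against cells cultured alone differs in both compound and partner cells, which cannot be told apart.

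Total counts ranged from 29350158 to 54099085 per library, the RNA integrity number from 9.2 to 10, and the sorted cells per library from 2148 to 25000. Each group has 1 library in each of 3 batches, mbb336, mbb339 and mbb340, which are replicates 1, 2 and 3. For replicate 1 of co-culture the source names of both libraries name the other cell type, and titles and experiment names were followed. The 12 macrophage markers summed to 62500.0 to 234829 CPM (counts scaled to library size) in macrophage libraries and 86.5 to 3828 CPM in PDPN+ libraries. The 11 fibroblast markers other than Fn1 summed to 7282 to 41532 CPM in PDPN+ libraries and 0.803 to 1201 CPM in macrophage libraries. With Fn1 the 12 summed to 16836 to 28751 CPM in ex vivo macrophages and 8253 to 29708 CPM in PDPN+ cells alone, which overlap. In macrophages these 12 summed to 200 to 3257 CPM alone and 6058 to 13324 CPM in co-culture. The cell types were thus apart in this sum only without Fn1. In PDPN+ cells macrophage markers summed to 86.5 to 144 CPM alone, 109 to 643 in transwell culture, 1661 to 2450 in co-culture and 1659 to 3828 with BMS493. The 11 fibroblast markers without Fn1 in macrophages summed to 6.04 to 104, 27.9 to 159, 291 to 1201 and 630 to 938 CPM in that order. Both BMS493 ranges overlapped co-culture and lay above alone and transwell. PDPN+ alone replicate 3 and PDPN+ transwell replicate 1 stood apart from the other 10 PDPN+ libraries. The median correlation of a library with all other PDPN+ libraries was 0.819 to 0.821 for these 2 and 0.833 to 0.928 for the other 10. The gap to the next, BMS493 replicate 3 at 0.833, was small. The 2 correlated with each other at 0.951. Calls and some fitted values are also given without them where stated. Counts at an unadjusted p, overlap and within-batch counts and medians are given only with them.

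Glycolysis takes up glucose through transporters such as GLUT1 (gene Slc2a1), traps it by phosphorylation with a hexokinase, splits it with aldolase and ends in pyruvate, which lactate dehydrogenase turns into lactate for export. When oxygen is scarce, prolyl hydroxylases (genes Egln1 and Egln3) no longer mark the HIF alpha subunit for breakdown, and HIF raises the genes of nearly every step of this route. Activated macrophages and fibroblasts are known to use glycolysis also when oxygen is present, and Hif1a transcript level is not a measure of HIF protein. Egln3, Bnip3, Ankrd37, Ndrg1 and Car9 are widely used readouts of HIF activity.

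By role the members were 3 genes of glucose entry (the transporter Slc2a1 and the hexokinases Hk1 and Hk2), 6 of upper glycolysis (Gpi1, Pfkl, Pfkp, Aldoa, Aldoc and Tpi1), 6 of lower glycolysis (Gapdh, Pgk1, Pgam1, Eno1, Eno2 and Pkm), 5 of PFKFB and pyruvate control (Pfkfb3, Pfkfb4, Ldha, Slc16a3 and the pyruvate dehydrogenase kinase Pdk1), 3 of HIF and oxygen sensing and 11 HIF targets. In each fit the 34 passed the filter on low counts. Ndufa4l2 did so in fits that hold macrophages only through groups where it is high (co-culture and BMS493 macrophages, and PDPN+ cells), so its test there was fixed by the filter. It is left out of every member count and median of those fits, which are over the other 33, while the shares of all genes keep such genes. The HIF targets not yet named are Bnip3l, P4ha1, P4ha2, Ero1l, Ndufa4l2, the mitochondrial protein gene Higd1a and Mxi1, an antagonist of Myc.

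Per length of transcript the same 5 enzymes, Gapdh, Eno1, Ldha, Pkm and Aldoa, were the most abundant members ex vivo, in macrophages cultured alone and in PDPN+ cells cultured alone. On the authors' scale of size-factor-adjusted RPKM (nRPKM), ex vivo macrophages had Gapdh at 1562 ± 276 (mean ± SD, n = 3, as for every such value), Eno1 at 1019 ± 199, Ldha at 732 ± 97.2, Pkm at 489.7 ± 120.0 and Aldoa at 312 ± 26.9 nRPKM. The first 2 do not overlap in their libraries' ranges, whereas in macrophages cultured alone the first 5, Gapdh (950.2 ± 588), Aldoa (905 ± 232), Pkm (661 ± 413), Eno1 (601 ± 351) and Ldha (485 ± 380.0), do not differ beyond their spread. PDPN+ cells cultured alone also had Gapdh first (895 ± 357), followed by Ldha (586 ± 63.4) and Eno1 (562 ± 48.0). At the low end were Ndufa4l2, a HIF-induced paralogue of a mitochondrial complex subunit, with 0 counts in all 6 ex vivo and alone macrophage libraries, and Eno2, the neuronal enolase, at 0.105 ± 0.105 nRPKM ex vivo. The heatmap of all members sets every library beside the others.

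**Figure D1:**
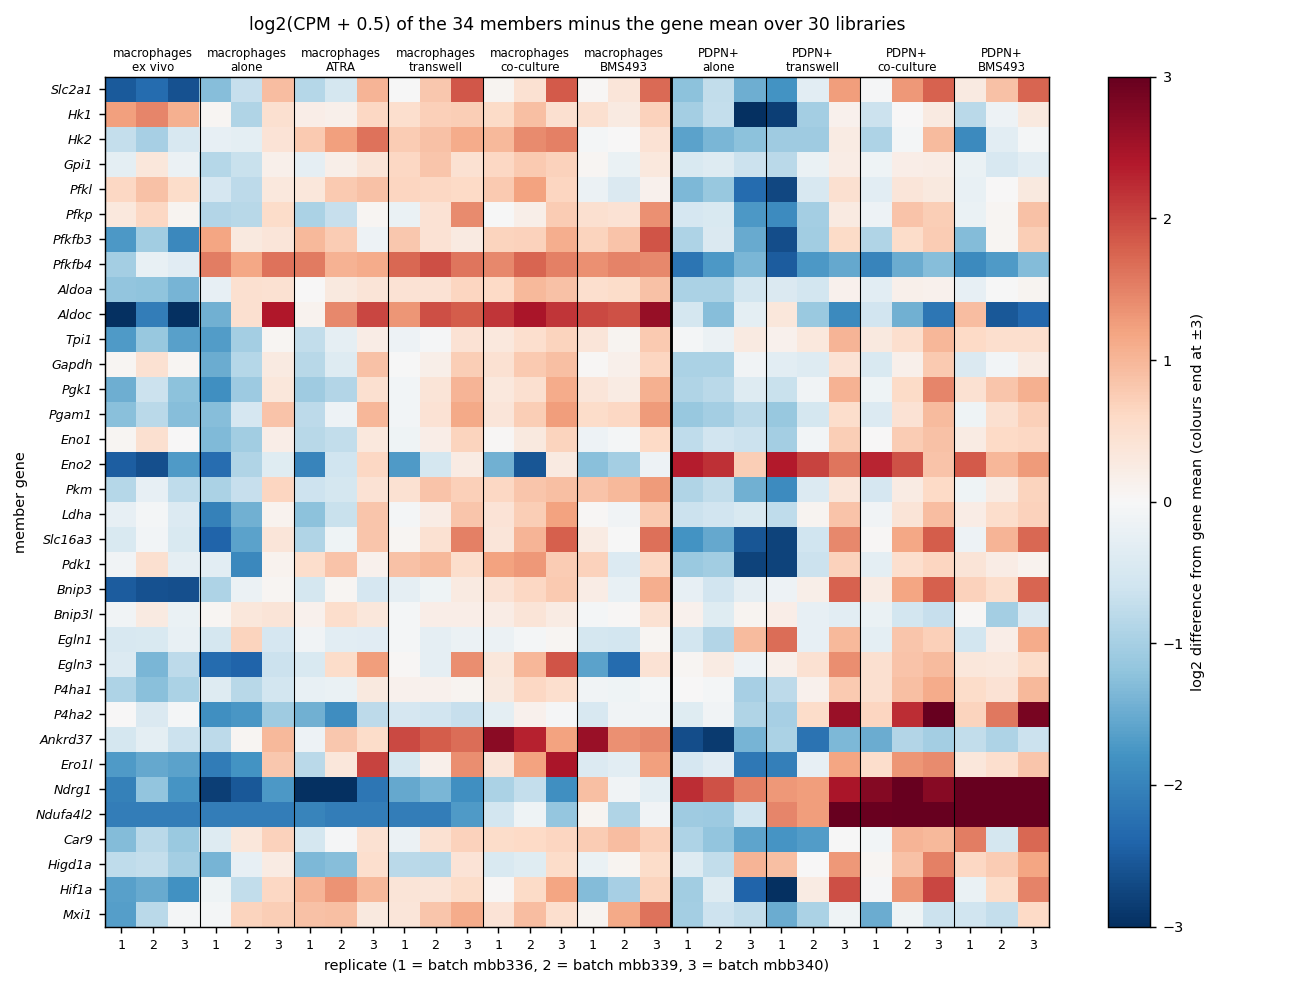
Level of each of the 34 members in each of the 30 libraries, as log2(CPM + 0.5) minus the gene's mean over all libraries; columns are libraries in their groups, with replicate 1, 2 and 3 from batches mbb336, mbb339 and mbb340. Hk1 is highest ex vivo while Slc2a1, Aldoc and Bnip3 are lowest there, and replicate 3 is the redder column in most cultured macrophage groups.

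HIF binds DNA at a short core, ACGTG or GCGTG, and many of its targets carry that core close to their start. The promoter windows of the members, from 250 bases before to 50 after the start (RefSeq, GRCm38.p6, the window with the most cores where a gene has several), were searched for both cores on both strands, where the other strand reads CACGT or CACGC. A window was found for 31 of the 34 genes, the exceptions being Bnip3l, Ndrg1 and Ndufa4l2. At least 1 core lay in 28 of them (90.3%), against 46.7% of 27025 genes with a window, and ACGTG lay in 23 (74.2%), against 21.8%. The member windows were also richer in G and C, with a median of 65.0% against 52.7% over all 32851 windows. These medians are over unlike sets, because only the member windows were chosen for their cores where a gene has several. CACGTG holds ACGTG and CACGT, which overlap. Of the 4 windows printed first, those of Hk2 and P4ha2 are from the members called in the most comparisons below and the other two from members called in 3, and the fifth, of Tpi1, holds none. Capitals mark the cores, and a match in letters is a description, not a bound site.
Hk2, minus strand, chr6:82774405-82774704: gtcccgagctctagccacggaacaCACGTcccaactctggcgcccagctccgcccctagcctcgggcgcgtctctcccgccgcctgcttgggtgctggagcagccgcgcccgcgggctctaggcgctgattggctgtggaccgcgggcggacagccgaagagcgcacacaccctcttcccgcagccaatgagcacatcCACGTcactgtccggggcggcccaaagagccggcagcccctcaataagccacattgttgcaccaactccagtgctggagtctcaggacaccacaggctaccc
P4ha2, plus strand, chr11:54100674-54100973: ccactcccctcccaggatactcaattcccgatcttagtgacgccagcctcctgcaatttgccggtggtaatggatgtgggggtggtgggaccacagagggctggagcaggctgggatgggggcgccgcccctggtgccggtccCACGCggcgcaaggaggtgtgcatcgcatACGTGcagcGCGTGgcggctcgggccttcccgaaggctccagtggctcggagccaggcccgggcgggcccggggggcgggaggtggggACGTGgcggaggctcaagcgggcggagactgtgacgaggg
Aldoa, minus strand, chr7:126799205-126799504: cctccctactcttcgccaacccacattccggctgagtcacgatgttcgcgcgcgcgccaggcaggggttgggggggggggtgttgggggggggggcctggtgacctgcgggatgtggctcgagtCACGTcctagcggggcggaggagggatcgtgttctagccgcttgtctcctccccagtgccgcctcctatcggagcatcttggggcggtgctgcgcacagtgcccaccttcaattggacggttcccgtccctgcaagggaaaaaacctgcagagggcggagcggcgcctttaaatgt
Bnip3, minus strand, chr7:138909457-138909756: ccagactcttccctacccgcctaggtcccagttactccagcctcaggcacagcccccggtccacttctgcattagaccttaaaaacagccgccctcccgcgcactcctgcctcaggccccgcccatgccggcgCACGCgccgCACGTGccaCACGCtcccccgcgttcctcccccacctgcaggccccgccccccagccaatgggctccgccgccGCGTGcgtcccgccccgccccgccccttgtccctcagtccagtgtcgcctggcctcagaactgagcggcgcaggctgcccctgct
Tpi1, minus strand, chr6:124814109-124814408: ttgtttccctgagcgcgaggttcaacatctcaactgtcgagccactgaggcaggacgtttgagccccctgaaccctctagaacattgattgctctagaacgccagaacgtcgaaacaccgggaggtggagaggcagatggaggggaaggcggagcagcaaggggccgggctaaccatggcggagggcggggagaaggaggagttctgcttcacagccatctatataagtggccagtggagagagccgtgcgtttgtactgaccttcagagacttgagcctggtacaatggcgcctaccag

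In macrophages, culture alone was accompanied by calls in both directions. Macrophages cultured alone had higher Slc2a1, Hk2, Pfkfb3, Pfkfb4, Aldoa, Aldoc, Bnip3, Car9 and Hif1a than ex vivo macrophages, and lower Hk1, Pfkl and P4ha2. These 12 of 33 members were called at an adjusted p under 0.05 by edgeR's quasi-likelihood test, 9 higher and 3 lower, against 17.8% of the 17774 genes tested (9.31% higher and 8.5% lower). The 33 members had a median log2 fold change of 0.48, and all genes tested 0.08. This fit, like the main fit of every comparison between groups, had no term for batch. No enzyme of the lower pathway passed its test, while Gapdh and Eno1 were called lower with the batch as a block. By role, the fit without the block called 2 higher and 1 lower of 3 for glucose entry. Of 6 in the upper pathway it called 2 higher and 1 lower. It called 2 of 5 higher for PFKFB and pyruvate control, and 1 of 3 higher for HIF and oxygen sensing. Of 10 HIF targets 2 were higher and 1 lower. In bulk RNA, fewer cells of a type and less RNA per cell cannot be told apart.

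At glucose entry the balance of hexokinases shifted towards Hk2, while Hk1 stayed the more abundant. Hk1, the housekeeping hexokinase, was at 186, 221 and 166 CPM in ex vivo replicates 1 to 3 and at 82.2, 42.1 and 111 CPM in macrophages cultured alone. Hk2, the inducible hexokinase, was at 21.8, 17.8 and 25.7 CPM ex vivo and 30.6, 29.7 and 48.5 CPM alone. All alone libraries lay below all ex vivo libraries for Hk1 and above them for Hk2. Hk1 fell 2.43-fold (log2 -1.28 ± 0.26 SE, adjusted p = 0.00344), and Hk2 rose 1.67-fold (log2 0.74 ± 0.24 SE, adjusted p = 0.0415). The ratio of Hk2 to Hk1 in nRPKM ranged from 0.0696 to 0.134 over the ex vivo libraries and from 0.322 to 0.609 over the alone libraries. Slc2a1 was at 15.5, 18 and 14.6 CPM ex vivo and 37.6, 56.6 and 174 CPM alone, again without overlap, and rose 5.51-fold (log2 2.46 ± 0.70 SE, adjusted p = 0.0242). The Hk2 call was lost without alone replicate 3 (0.149), ex vivo replicate 1 (0.101), ex vivo replicate 2 (0.166), ex vivo replicate 3 (0.0534), batch mbb336 (0.118), batch mbb339 (0.282) or batch mbb340 (0.0589), and with no filter on low counts (0.117) and in a fit of the 2 groups alone (0.137), where the bracketed numbers are the adjusted p-values that remained and a batch is left out in every group. The Hk1 call was lost without batch mbb336 (0.0884) or batch mbb339 (0.0606), and in a fit of the 2 groups alone (0.0520), and the Slc2a1 call without alone replicate 3 (0.115), ex vivo replicate 1 (0.0770), ex vivo replicate 2 (0.0721), ex vivo replicate 3 (0.0852), batch mbb336 (0.0653) or batch mbb339 (0.192).

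Beside Slc2a1, the called members with the largest rise were an aldolase, both PFKFB enzymes and a mitophagy receptor. Aldoc, the aldolase best known from brain, was at 1.0, 4.51 and 0.456 CPM ex vivo and 7.25, 28.8 and 111 CPM alone. The alone libraries differed widely among themselves and all lay above the ex vivo libraries. It rose 23.9-fold (log2 4.58 ± 0.92 SE, adjusted p = 0.00294). Aldoa, which is far more abundant, rose 2.90-fold (log2 1.54 ± 0.21 SE, adjusted p = 1.71e-04), from 559 ± 41.3 to 1616 ± 419.6 CPM. Pfkfb3 and Pfkfb4 make and remove fructose-2,6-bisphosphate, the activator of phosphofructokinase. Pfkfb3 was at 9.20, 14.9 and 7.89 CPM ex vivo and 72.4, 38.6 and 40.5 CPM alone, and rose 4.78-fold (log2 2.26 ± 0.41 SE, adjusted p = 0.00143). Pfkfb4 was at 9.89, 17.6 and 16.2 CPM ex vivo and 61.0, 46.7 and 65.0 CPM alone, and rose 3.97-fold (log2 1.99 ± 0.22 SE, adjusted p = 3.05e-05). Both groups stayed apart for all of these genes, and the 4 calls held whichever library of these groups was left out. Aldoc missed the threshold in a fit of the 2 groups alone (adjusted p = 0.0514), and Pfkfb3 without batch mbb336 (adjusted p = 0.0515).

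Bnip3, a HIF target that marks mitochondria for removal, was at 25.7, 23.7 and 23.6 CPM ex vivo and 78.3, 131 and 154 CPM alone. It rose 5.0-fold (log2 2.32 ± 0.32 SE, adjusted p = 1.81e-04), while its relative Bnip3l had a log2 fold change of 0.28 ± 0.18 (adjusted p = 0.310). Hif1a itself was at 147, 159 and 129 CPM ex vivo and 413, 270.5 and 699 CPM alone, and rose 3.17-fold (log2 1.67 ± 0.46 SE, adjusted p = 0.0199). Its call was lost without alone replicate 3 (0.0721), ex vivo replicate 1 (0.0604), ex vivo replicate 2 (0.0563), ex vivo replicate 3 (0.0763), batch mbb336 (0.109) or batch mbb339 (0.117). Car9, a membrane carbonic anhydrase, stayed below 10 CPM in every macrophage library and rose 2.91-fold (log2 1.54 ± 0.33 SE, adjusted p = 0.00447), a call lost without batch mbb339 (0.111) or batch mbb340 (0.0549), and in a fit of the 2 groups alone (0.0552). The other readouts of HIF did not pass the test, with log2 fold changes of -0.78 ± 0.72 (adjusted p = 0.515) for Egln3, 0.78 ± 0.46 (adjusted p = 0.276) for Ankrd37 and -0.82 ± 0.71 (adjusted p = 0.479) for Ndrg1.

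Among the members that fell, P4ha2, a collagen prolyl 4-hydroxylase subunit, was at 70.3, 52.1 and 67.1 CPM ex vivo and 19.1, 20.4 and 33.2 CPM alone. It fell 2.6-fold (log2 -1.38 ± 0.25 SE, adjusted p = 0.00150), a call lost without batch mbb336 (0.0877). Its sister subunit P4ha1 was at 146, 116 and 144 CPM ex vivo and 213, 156 and 188 CPM alone. The ratio of P4ha2 to P4ha1 in nRPKM ranged from 0.793 to 0.844 ex vivo and from 0.157 to 0.310 alone, without overlap. Pfkl, the liver-type phosphofructokinase, fell 1.93-fold (log2 -0.95 ± 0.25 SE, adjusted p = 0.0157), from 436 ± 53.9 to 225 ± 94.1 CPM. The Pfkl call was lost without alone replicate 1 (0.0552), alone replicate 2 (0.0753), ex vivo replicate 2 (0.0687), batch mbb336 (0.202) or batch mbb339 (0.273), and in a fit of the 2 groups alone (0.0836).

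The number of members that fell with culture depended on batch mbb340. Without that batch in every group 18 members were called (19.4% of all genes), 8 higher and 10 lower. The 10 then lower were Hk1, Gpi1, Pfkl, Pfkp, Gapdh, Eno1, Ldha, Slc16a3, Egln3 and P4ha2. Ldha, which makes lactate, was at 1343, 1539 and 1202 CPM ex vivo and 392, 593 and 1731 CPM alone. Replicates 1 and 2 alone lay below every ex vivo library and replicate 3 above them. Its log2 fold change was -0.60 ± 0.53 (adjusted p = 0.489) with all libraries and -1.53 without batch mbb340 (adjusted p = 0.00314). Slc16a3, the lactate exporter MCT4, was at 68.5, 89.3 and 69.2 CPM ex vivo and 17.3, 30.7 and 121 CPM alone, with -1.69 without batch mbb340 (adjusted p = 0.00814). Gapdh and Eno1 were at -1.40 and -1.44, with adjusted p-values of 0.00502 and 0.00143. With the batch as a block, 16 members were called, 11 higher and 5 lower, beside 24.2% of genes. The additions were P4ha1 and Mxi1 higher (adjusted p = 0.0410 and 0.0133) and Gapdh and Eno1 lower (adjusted p = 0.0400 and 0.0187). A near-identical copy of Eno1, Eno1b, stayed at or below 1.30 CPM.

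Across the 15 cultured macrophage libraries, 16 of 33 members were higher in batch mbb340 than in the mean of batches mbb336 and mbb339 with group in the model, and 0 were lower, against 28.2% of 17218 genes (16.2% higher). Slc2a1 was 3.01-fold (log2 1.59 ± 0.09 SE, adjusted p = 9.58e-07) higher. Ero1l, an oxidase of the endoplasmic reticulum, was 3.83-fold (log2 1.94 ± 0.17 SE, adjusted p = 1.21e-05) higher, and Egln3 2.99-fold (log2 1.58 ± 0.22 SE, adjusted p = 3.36e-04) higher. Slc16a3 was 2.80-fold (log2 1.48 ± 0.17 SE, adjusted p = 1.04e-04) higher and Ldha 2.21-fold (log2 1.14 ± 0.18 SE, adjusted p = 6.31e-04) higher. In ex vivo libraries replicate 3 was the highest of the 3 for 4 of 34 members (27.1% of all genes above 1 CPM). It was the highest for 29 of 34 in macrophages cultured alone (43.0% of all genes), 24 of 34 with ATRA (50.2%), 22 of 34 in transwell culture (43.2%), 20 of 34 in co-culture (39.4%) and 27 of 34 with BMS493 (36.8%).

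Some marker genes moved with this batch in the same 15 libraries. Dcn, a fibroblast proteoglycan, was at 87.8 to 140.5 CPM over the 5 libraries of batch mbb340, 0.659 to 96.4 CPM in batch mbb336 and 0.391 to 19.4 CPM in batch mbb339, and was the 1 of 11 fibroblast markers other than Fn1 that was highest in batch mbb340 in all 5 groups. Their sum was 28.8 to 1201 CPM in batch mbb336, 6.04 to 630.2 CPM in batch mbb339 and 104 to 938 CPM in batch mbb340. Pdpn, the gene of the stromal sort marker, was at 0.312 to 71.8, 1.24 to 120.1 and 130.3 to 683 CPM in the same order. In PDPN+ libraries Pdpn was at 91.3 to 215 CPM, so its macrophage levels in batch mbb340 overlapped or exceeded that range. The source of this RNA in macrophage libraries was not tested. Of 12 macrophage markers 6 were lowest in batch mbb340 in all 5 groups, Csf1r among them at 782 to 1062 CPM against 1223 to 4848 and 1258 to 2863 CPM, and 1 was highest. The 12 summed to 133784 to 165508, 124577 to 234829 and 90398 to 136080.0 CPM. Sums of the 4 granulocyte markers were 4.34 to 16.8, 10.6 to 33.8 and 45.6 to 122 CPM. The part of these shifts in the member results was not tested. What differed between the batches is not given in the labels and was not tested.

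**Figure D2:**
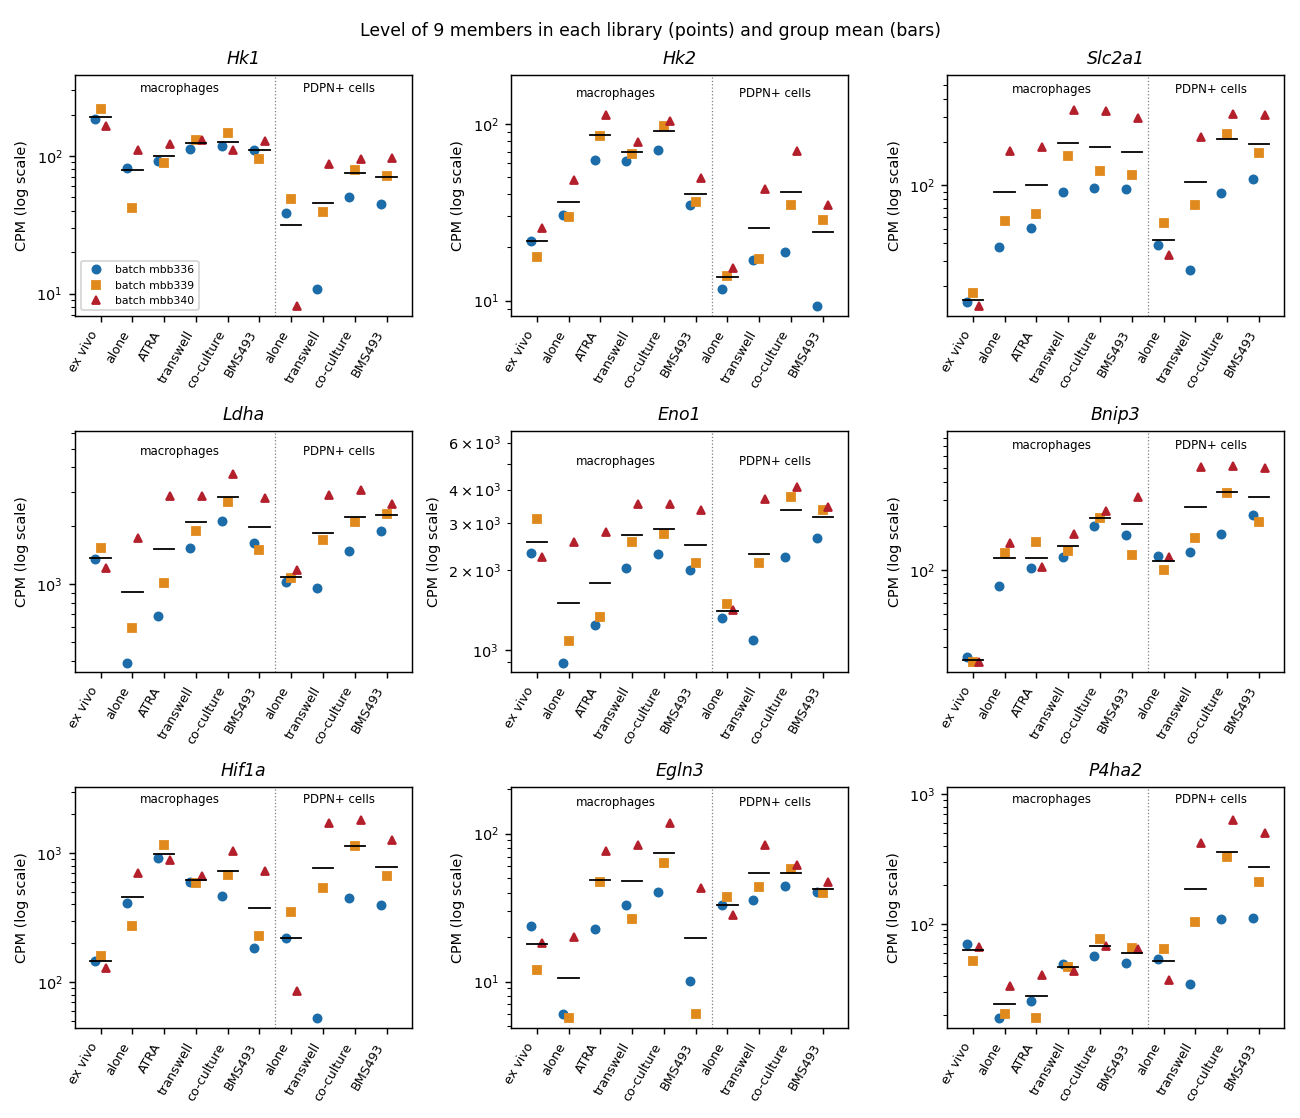
CPM on a log scale of 9 members in every library, coloured by batch, with a bar at each group mean; macrophage groups are left of the dotted line and PDPN+ groups right of it. Hk1 is highest ex vivo and Hk2 lowest there among macrophage groups, and for Slc2a1, Ldha and Egln3 the batch mbb340 libraries top each cultured macrophage group.

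Hk2 was higher with ATRA than in macrophages cultured alone. It was at 30.6, 29.7 and 48.5 CPM in replicates 1 to 3 alone and 62.6, 86.0 and 113 CPM with ATRA, so the groups did not overlap. Hk2 rose 2.35-fold (log2 1.24 ± 0.24 SE, adjusted p = 0.0435) and was the only 1 of 33 members called, against 0.326% of genes. The ratio of Hk2 to Hk1 in nRPKM was 0.593 to 0.843 with ATRA, against 0.322 to 0.609 alone, which overlap. This call was close to the threshold: its adjusted p was 0.0501 with RLE scaling, 0.0575 with no filter on low counts and 0.459 in a fit of these 2 groups alone, and it was lost without alone replicate 1 (0.119), alone replicate 2 (0.256), ATRA replicate 2 (0.174), ATRA replicate 3 (0.114), batch mbb336 (0.322) or batch mbb339 (1.0). With the batch as a block it was 0.00207.

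Other members did not pass the test with ATRA, and their median log2 fold change over the 33 was 0.22. Egln3, the HIF-induced oxygen sensor, was at 6.03, 5.63 and 20.0 CPM alone and 22.8, 46.8 and 76.5 CPM with ATRA, a log2 fold change of 2.18 ± 0.75 (adjusted p = 0.372). The groups did not overlap, and with the batch as a block Egln3 was called (log2 2.34, adjusted p = 0.0307), which made 2 calls, beside 0.805% of genes. Hif1a was at 413, 270.5 and 699 CPM alone and 923, 1162 and 888 CPM with ATRA, with a log2 fold change of 1.09 ± 0.45 (adjusted p = 0.561). Without batch mbb340 in every group, 4 members were called higher (0.587% of all genes in either direction), namely Hk2, Pfkl, Egln3 and Hif1a, the last at log2 1.58 (adjusted p = 0.0327). The glycolysis enzymes of the lower pathway had log2 fold changes from -0.02 to 0.86 with all libraries.

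In co-culture with PDPN+ cells the macrophages had higher Hk2, P4ha1 and P4ha2 than when cultured alone. These 3 of 33 members were called, against 0.698% of genes. Hk2 was at 71.6, 97.0 and 104 CPM in co-culture against 30.6, 29.7 and 48.5 CPM alone, and rose 2.44-fold (log2 1.28 ± 0.24 SE, adjusted p = 0.0237). P4ha1 was at 339.9, 425 and 396 CPM against 213, 156 and 188 CPM, and rose 2.01-fold (log2 1.01 ± 0.17 SE, adjusted p = 0.0132). P4ha2 was at 57.3, 77.1 and 68.3 CPM against 19.1, 20.4 and 33.2 CPM, and rose 2.71-fold (log2 1.44 ± 0.25 SE, adjusted p = 0.0164). In none of the 3 did the groups overlap. The Hk2 call was lost without alone replicate 1 (0.0962), alone replicate 2 (0.134), co-culture replicate 2 (0.0831), batch mbb336 (0.261) or batch mbb339 (0.803), and in a fit of the 2 groups alone (0.153). The P4ha1 call was lost without alone replicate 2 (0.0783), co-culture replicate 2 (0.0564), batch mbb336 (0.172) or batch mbb339 (0.658), and in a fit of the 2 groups alone (0.207), and the P4ha2 call without alone replicate 1 (0.0695), alone replicate 2 (0.103), co-culture replicate 2 (0.0684), batch mbb336 (0.290) or batch mbb339 (0.651), and in a fit of the 2 groups alone (0.128). A fit of the 2 groups alone called 0 members (against 0.00654% of genes) and DESeq2 called 9 (against 3.96%). EdgeR at an unadjusted p under 0.05 had 19, all higher, against 7.42% of genes higher at that p.

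The remaining members leaned the same way without passing the test of this fit, which had no term for batch. The log2 fold change was above 0 for 31 of 33, with a median of 1.01 against -0.03 over all genes. The groups did not overlap, co-culture higher, for 13 members, against 8.28% of genes. Within each batch, 22 members were higher in co-culture in all 3, against 19.6% of genes. The size differed by batch, with a median log2 ratio over the members of 1.34 in batch mbb336, 1.46 in batch mbb339 and 0.55 in batch mbb340. Ldha had within-batch log2 ratios of 2.44, 2.16 and 1.09 and a fitted value of 1.61 ± 0.54 (adjusted p = 0.203). Egln3 had within-batch ratios of 2.65, 3.38 and 2.54 and a fitted value of 2.78 ± 0.76 (adjusted p = 0.116). Both were smallest in batch mbb340, where the alone library was the highest of its group.

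With the batch as a block, 12 of 33 members were called in this comparison, all higher, against 2.41% of genes. They were Hk2, Gpi1, Pfkl, Tpi1, Gapdh, Pgk1, Ldha, Slc16a3, Egln3, P4ha1, P4ha2 and Ero1l. Ldha had a log2 fold change of 1.8 (adjusted p = 0.0175) and Slc16a3 of 2.15 (adjusted p = 0.0117) in that fit, and Ero1l of 2.25 (adjusted p = 0.0126). Without batch mbb340 in every group 18 members were called, all higher (5.15% of all genes in either direction). Without batch mbb336 it was 0 (0.0792% of genes), as without batch mbb339 (0.0%). Without alone replicate 3 only, 10 were called (1.42% of genes), and without co-culture replicate 3, 5 (0.945%). Without alone replicate 1 it was 1 (0.299%), and without alone replicate 2 (0.0268%) or co-culture replicate 2 (0.149%) it was 0. Pfkfb3 and Pfkfb4, which rose with culture alone, were not called here with or without the block, or without batch mbb340. They had log2 fold changes of 0.10 ± 0.39 (adjusted p = 0.946) and 0.07 ± 0.21 (adjusted p = 0.925).

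Fibroblast markers were detected in the sorted co-culture macrophages. The median excess of 11 fibroblast markers over macrophages alone was 3.24%, 1.16% and 0.999% of the level in the co-culture PDPN+ cells of the same batch, replicates 1 to 3. The excess of P4ha1 was 40.0%, 45.7% and 35.0% of that level, of P4ha2 29.99%, 16.1% and 6.92% and of Hk2 187%, 175% and 97.2%. For Ndufa4l2 it was 5.79%, 2.6% and 1.08% and for Ndrg1 4.73%, 4.71% and 1.18%. Ndufa4l2 was at 0.934, 1.43 and 0.441 CPM in co-culture and at 0 counts alone, which is at least 31.8-fold higher taking 3 counts in the whole group as the floor. The part of partner RNA in the Ndufa4l2 result was not tested.

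**Figure D3:**
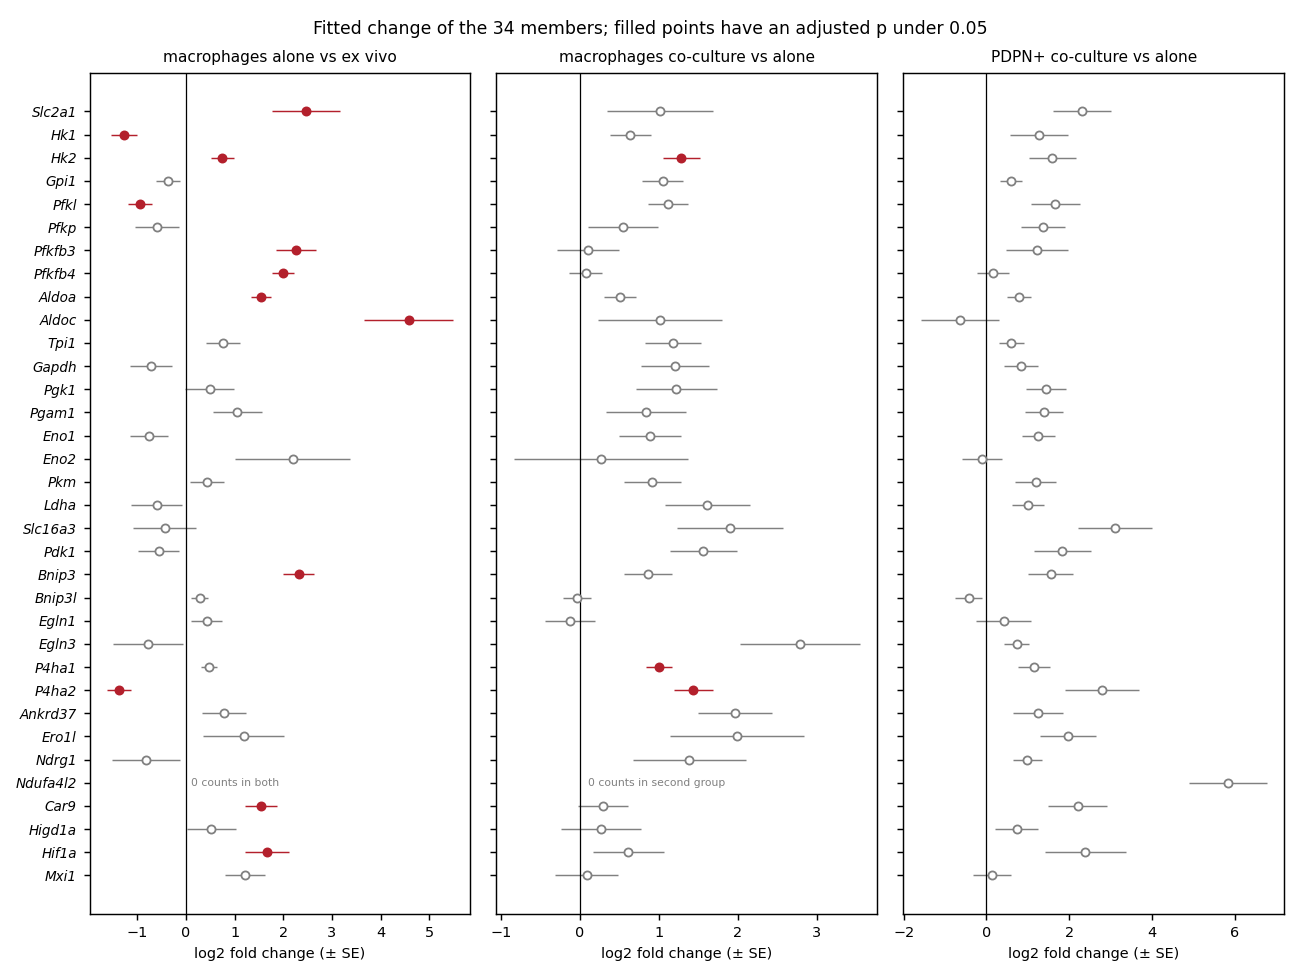
Fitted log2 fold change with its standard error for the 34 members in macrophages alone against ex vivo, macrophages in co-culture against alone, and PDPN+ cells in co-culture against alone; filled red points have an adjusted p under 0.05, and Ndufa4l2 has no point in the macrophage panels because a reference group had 0 counts. Culture alone has 12 filled points on both sides of 0, co-culture 3 in macrophages and 0 in PDPN+ cells, where all open points but those of Aldoc, Bnip3l and Eno2 lie right of 0.

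Across a transwell, where the cell types share medium and not contact, no member was called in macrophages against cells cultured alone (0 of 33, against 0.0281% of genes). At an unadjusted p under 0.05 there were 13 members, all higher, against 4.87% of genes higher, and DESeq2 called 5 (against 1.46% of genes). The fitted median over the members was 0.82, against 1.01 for co-culture with the same alone libraries as reference. Hk2 was at 62.1, 67.3 and 79.5 CPM, above all 3 alone libraries, with a log2 fold change of 0.91 ± 0.24 (adjusted p = 0.252). With the batch as a block it was the only member called, beside 0.129% of genes (log2 0.93, adjusted p = 0.0313). Gpi1, the isomerase after hexokinase, was at 685, 791 and 606 CPM against 245, 278 and 495 CPM, with 1.0 ± 0.26 (adjusted p = 0.247). Ankrd37 was at 32.7, 29.3 and 26.3 CPM against 4.40, 8.22 and 16.0 CPM, with 1.61 ± 0.47 (adjusted p = 0.285). All 3 genes kept the groups apart. Without batch mbb340, 11 members were called (1.79% of all genes), among them Ldha at 1.73 (adjusted p = 0.0208). The fibroblast marker excess in transwell macrophages was 0.157%, -0.00937% and -0.0155% of the PDPN+ level.

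Co-culture and transwell compared directly gave 0 called members (against 0.0394% of genes) in this fit. Each alternative run for the pair also called 0, a count given without its share of all genes and not read as a result about the members. In this fit 2 members had an unadjusted p under 0.05, both higher in co-culture, beside 3.02% of genes higher. P4ha1 differed by log2 0.35 ± 0.16 (adjusted p = 1.0), P4ha2 by 0.53 ± 0.25 (adjusted p = 1.0) and Hk2 by 0.38 ± 0.24 (adjusted p = 1.0). Ndufa4l2 was at 0, 0 and 0.155 CPM in transwell macrophages, 4 counts in all, and above that in all 3 co-culture libraries.

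**Figure D4:**
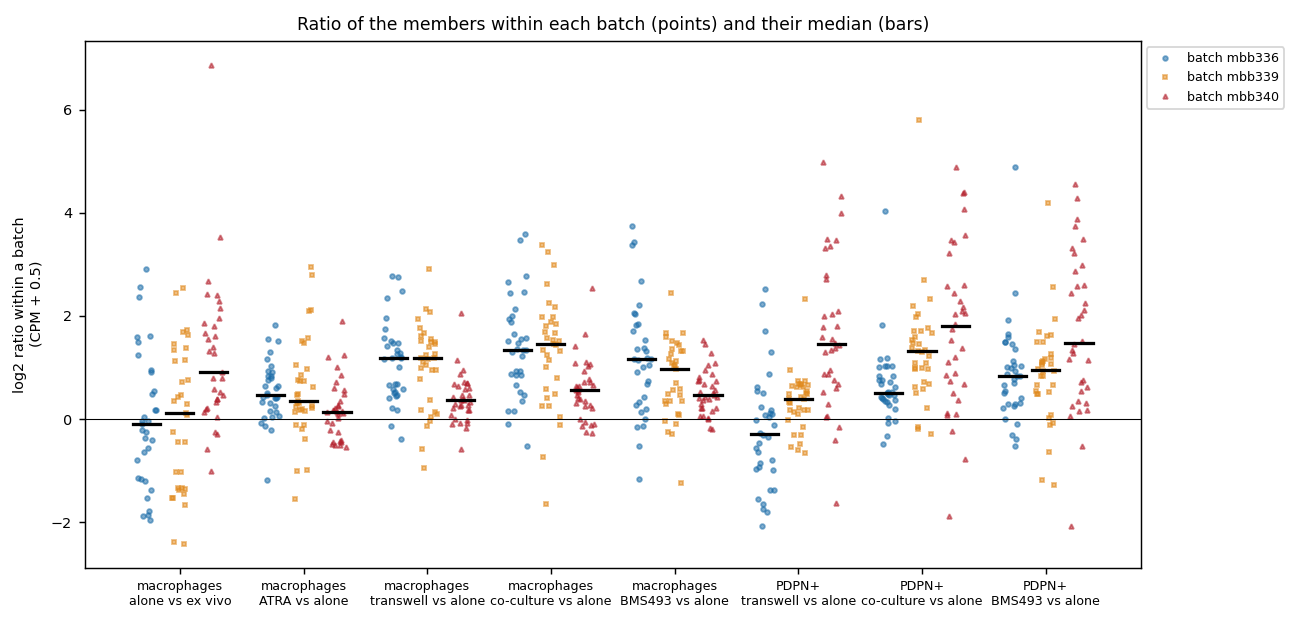
Log2 ratio of each member between 2 conditions of the same batch (CPM + 0.5), 1 point per member (33 in macrophages, 34 in PDPN+ cells), with a bar at the median; colours are batches. For macrophages in co-culture the medians are 1.34, 1.46 and 0.55 in batches mbb336, mbb339 and mbb340, and for PDPN+ cells in co-culture they are 0.51, 1.31 and 1.8.

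With BMS493, Hk2 of macrophages was lower than in co-culture and overlapped the range of cells cultured alone. Hk2 was at 34.9, 36.4 and 49.3 CPM with BMS493, below all 3 co-culture libraries (71.6, 97.0 and 104 CPM). It fell 2.30-fold (log2 -1.20 ± 0.24 SE, adjusted p = 0.0271) and was the only 1 of 33 members called against co-culture, beside 0.85% of genes. The ratio of Hk2 to Hk1 in nRPKM was 0.274 to 0.333 with BMS493 and 0.523 to 0.813 in co-culture, without overlap. Against cells cultured alone its log2 fold change was 0.08 ± 0.24 SE (adjusted p = 0.901). The call against co-culture was lost without co-culture replicate 2 (0.110), co-culture replicate 3 (0.0901), BMS493 replicate 1 (0.160), BMS493 replicate 2 (0.160), batch mbb336 (0.286) or batch mbb339 (0.852), and in a fit of the 2 groups alone (0.0826).

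Pfkl and Egln3 were called with the batch as a block, which made 3 calls lower, beside 1.8% of genes. Pfkl was at 237, 199 and 293 CPM with BMS493 and 466, 617 and 422 CPM in co-culture, without overlap, a log2 fold change of -1.07 ± 0.25 (adjusted p = 0.0656) and -1.08 (adjusted p = 0.0426) with the block. Egln3 was at 10.0, 6.04 and 42.9 CPM with BMS493 and 40.5, 63.2 and 118 CPM in co-culture. Each Egln3 library lay below the co-culture library of its batch, though the groups overlap, and the block fit gave -2.22 (adjusted p = 0.0246). Hif1a was at 185, 227 and 725 CPM with BMS493 and 463, 673 and 1036 CPM in co-culture, with -0.95 ± 0.45 (adjusted p = 0.573), and was called without batch mbb340 (log2 -1.48, adjusted p = 0.0169), where 4 members were lower (1.74% of genes called). Pfkp is the platelet-type phosphofructokinase. The ratio of Pfkp to Pfkl in nRPKM was 0.348 to 0.524 with BMS493 and 0.109 to 0.241 in co-culture.

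Against macrophages cultured alone, which also serve as the reference for co-culture, BMS493 macrophages had 1 of 33 members called, beside 0.737% of genes. P4ha2 was at 50.4, 65.6 and 64.7 CPM, above all alone libraries (19.1, 20.4 and 33.2 CPM), and rose 2.37-fold (log2 1.25 ± 0.25 SE, adjusted p = 0.0315). Ndufa4l2 was at 1.72, 0.636 and 1.48 CPM against 0 counts, at least 43.5-fold higher, a value with no test here. The P4ha2 call was lost without alone replicate 1 (0.149), alone replicate 2 (0.158), BMS493 replicate 1 (0.0571), BMS493 replicate 2 (0.105), BMS493 replicate 3 (0.0784), batch mbb336 (0.448) or batch mbb339 (0.642), and in a fit of the 2 groups alone (0.128). With the batch as a block 5 members were called higher, namely Tpi1, Pgk1, Pkm, Slc16a3 and P4ha2 (beside 2.32% of genes), and without batch mbb340 in every group 13 (7.09% of genes in either direction). Pkm, pyruvate kinase, was at 3435, 3711 and 4547 CPM with BMS493, 2889, 3366 and 3544 CPM in co-culture and 973, 1166 and 2934 CPM alone. The fibroblast marker excess in BMS493 macrophages was 2.82%, 2.67% and 3.21% of the PDPN+ level, and that of Ndufa4l2 was 5.81%, 3.56% and 4.54% and of Ndrg1 12%, 8.57% and 4.01%. Its part in these results was not tested.

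Against ex vivo cells, the same ex vivo libraries being the reference throughout, calls in macrophages from co-culture were all in 1 direction. In co-culture 17 of 33 members were higher and 0 lower, beside 14.9% of genes (9.47% higher). With ATRA 12 were higher and 2 lower, beside 14.9% of genes, and without ex vivo replicate 1 there were 9 in all (beside 9.65%). In co-culture Slc2a1 rose 11.1-fold (log2 3.48 ± 0.73 SE, adjusted p = 0.00556), Aldoc 48.1-fold (log2 5.59 ± 0.96 SE, adjusted p = 0.00133) and Bnip3 9.08-fold (log2 3.18 ± 0.33 SE, adjusted p = 3.12e-05). Ero1l, at 304, 547 and 1298 CPM against 72.8, 81.8 and 77.8 CPM, rose 9.0-fold (log2 3.17 ± 0.89 SE, adjusted p = 0.0264), and Ankrd37, at 54.1, 41.1 and 19.0 CPM against 5.35, 6.31 and 4.90 CPM, rose 6.70-fold (log2 2.74 ± 0.48 SE, adjusted p = 0.00168). In the lower pathway Pgk1, Pgam1 and Pkm rose 3.26-fold, 3.70-fold and 2.54-fold (adjusted p = 0.0378, 0.0234 and 0.0217). Tpi1 rose 3.82-fold (log2 1.93 ± 0.36 SE, adjusted p = 0.00261). The Ero1l call was lost without ex vivo replicate 1 (0.0885), ex vivo replicate 2 (0.0872), ex vivo replicate 3 (0.0883), co-culture replicate 3 (0.102), batch mbb336 (0.0798) or batch mbb339 (0.215), and those of Pgk1, Pgam1, Pkm and Mxi1 without 3 or more of the 6 libraries each. Without batch mbb339 the calls of Slc2a1 (0.113), Tpi1 (0.0749) and Ankrd37 (0.0822) were lost too. Hk1 did not pass the test, with log2 -0.64 ± 0.26 (adjusted p = 0.111), and P4ha2 was at 0.06 ± 0.25 (adjusted p = 0.911).

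With ATRA, Hif1a rose 6.77-fold (log2 2.76 ± 0.48 SE, adjusted p = 0.00144) over ex vivo, to 923, 1162 and 888 CPM, and Hk2 rose 3.94-fold (log2 1.98 ± 0.24 SE, adjusted p = 1.08e-04). P4ha2 fell 2.27-fold (log2 -1.18 ± 0.25 SE, adjusted p = 0.00516) and Hk1 fell 1.93-fold (log2 -0.95 ± 0.26 SE, adjusted p = 0.0231), the latter call being lost without ex vivo replicate 1 (0.0568), ex vivo replicate 2 (0.0980), ATRA replicate 1 (0.0734), ATRA replicate 2 (0.0965), batch mbb336 (0.253) or batch mbb339 (0.111). Aldoc rose 26.2-fold (log2 4.71 ± 0.92 SE, adjusted p = 0.00331), Bnip3 rose 4.94-fold (log2 2.31 ± 0.32 SE, adjusted p = 2.78e-04) and Slc2a1 rose 6.05-fold (log2 2.6 ± 0.71 SE, adjusted p = 0.0223). The Slc2a1 call was lost without ex vivo replicate 1 (0.0766), ex vivo replicate 2 (0.0698), ex vivo replicate 3 (0.0821), ATRA replicate 3 (0.0905), batch mbb336 (0.0791) or batch mbb339 (0.199), the P4ha2 call without batch mbb336 (0.130) or batch mbb339 (0.105) and the Hif1a call without batch mbb339 (0.0709).

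In PDPN+ cells co-culture called no member against cells cultured alone (0 of 34, beside 0.0% of 19134 genes), although the co-culture libraries lay above the alone libraries for most members. At an unadjusted p under 0.05 there were 21 members, all higher, against 5.21% of genes higher. The groups did not overlap for 24 members, co-culture higher, against 10.1% of genes, and 29 were higher within all 3 batches, against 20.1%. The median log2 fold change was 1.23 over the members and -0.00 over all genes. These counts and medians include alone replicate 3, which stood apart, and are not given without it. Counts were also simulated from the 12 PDPN+ libraries, with 100 genes changed 4-fold and 100 changed 2-fold among 18573. The test recovered 20% of the former and 0% of the latter, in a setting simpler than the measured one. DESeq2 called 4 members in the measured counts (beside 1.81% of genes), namely Slc2a1, Slc16a3, P4ha2 and Ndufa4l2. A fit of the 2 groups alone called 1 (beside 0.195% of genes), as did the fit with no filter on low counts (beside 0.0892%).

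Ndufa4l2 had the lowest adjusted p of the members. It was at 0.515, 0.50 and 0.897 CPM alone and 16.1, 55 and 40.7 CPM in co-culture, a log2 fold change of 5.83 ± 0.95 (adjusted p = 0.0748). Slc16a3 was at 26.8, 32.2 and 15.6 CPM alone and 96.5, 211 and 334 CPM in co-culture, with 3.11 ± 0.90 (adjusted p = 0.386). P4ha2 was at 54, 64.8 and 37.2 CPM alone and 110.2, 329 and 637 CPM in co-culture, with 2.79 ± 0.89 (adjusted p = 0.454). Hif1a was at 221, 348 and 85.6 CPM alone and 445, 1129.9 and 1822 CPM in co-culture, with 2.39 ± 0.98 (adjusted p = 0.525). In all 4 genes the co-culture libraries lay above the alone libraries, and within co-culture replicate 1 was lowest. Co-culture replicate 1 and the 3 alone libraries came from 25000 sorted cells each, co-culture replicate 2 from 3730 and replicate 3 from 2148, and the part of cell number was not tested. The 8 mesothelial markers summed to 1586 to 2790.4 CPM alone and 40.6 to 1223 CPM in co-culture, without overlap, and to 17.9 to 1352 CPM with BMS493 and 230.0 to 1634 CPM in transwell culture, with none of the 8 at 0 in all 3 libraries of a group. The 11 fibroblast markers other than Fn1 summed to 7282 to 23802 CPM alone and 15730.5 to 41532 CPM in co-culture. The part of these markers' cells in the member levels was not tested. Alone replicate 3, which stood apart, was the lowest alone library for Slc16a3, P4ha2 and Hif1a and the highest for Ndufa4l2. Without it and transwell replicate 1 the fitted log2 values were 6.20 for Ndufa4l2, 2.87 for Slc16a3, 2.61 for P4ha2 and 2.0 for Hif1a, and 0 members were called. Leaving out the same libraries with the batch as a block gave 5.88, 2.18, 1.65 and 1.32 in that order, again with 0 calls. The shares of all genes called in these 2 fits are not given here, so neither count is read as a result about the members.

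In PDPN+ co-culture 3 members had fitted values below 0. Aldoc was at 14.1, 8.24 and 16.8 CPM alone and 13.7, 7.33 and 4.19 CPM in co-culture, with -0.65 ± 0.94 (adjusted p = 0.797), Bnip3l was at -0.43 ± 0.32 (adjusted p = 0.604) and Eno2 at -0.11 ± 0.49 (adjusted p = 0.944). Macrophage markers in the PDPN+ co-culture libraries had a median excess of 1.48%, 1.18% and 1.43% of their macrophage level. For Slc16a3 the excess was 59.1%, 97.0% and 94.7% of the macrophage level, and for P4ha2 102%, 359% and 857%.

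Transwell culture called 0 members in PDPN+ cells (beside 0.0% of genes), with 4 higher at an unadjusted p under 0.05 (beside 1.44% of genes) and 1, Ndufa4l2, by DESeq2 (beside 0.0836%). Ndufa4l2 was at 5.32, 4.55 and 43.8 CPM, above every alone library, with a log2 fold change of 4.81 ± 0.91 (adjusted p = 1.0). The member medians within batches mbb336, mbb339 and mbb340 were -0.29, 0.39 and 1.45, so the direction differed in the batch that holds transwell replicate 1. For Hif1a the transwell libraries were at 52.4, 538 and 1727 CPM and for Slc2a1 at 26.1, 73.7 and 218 CPM, each spanning the alone libraries. Without the 2 libraries that stood apart, 0 members were called. That count has no share of all genes beside it and is not read as a result about the members. Co-culture against transwell also gave 0 (beside 0.00523% of genes), with 2 members higher at an unadjusted p under 0.05 (beside 2.7% of genes), Ndrg1 at 1.06 ± 0.36 (adjusted p = 0.805) and Car9 at 1.78 ± 0.71 (adjusted p = 0.805).

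With BMS493, PDPN+ cells had 1 of 34 members called against cells cultured alone, beside 0.24% of genes. Ndufa4l2 was at 29.6, 17.8 and 32.6 CPM against 0.515, 0.50 and 0.897 CPM, and rose 40.4-fold (log2 5.34 ± 0.93 SE, adjusted p = 0.0490). The call was lost without any 1 of the 6 libraries (adjusted p from 0.0813 to 0.237) and without the 2 libraries that stood apart (adjusted p = 0.0788). With those left out and the batch as a block, 2 members were called instead, beside 1.22% of genes, Slc16a3 (log2 2.04, adjusted p = 0.0469) and Ankrd37 (2.45, adjusted p = 0.0474). DESeq2 called 5, beside 3.64% of genes. Ndrg1, which is induced by HIF and by stress, was at 156, 94.2 and 172 CPM with BMS493 against 51.2, 41.3 and 31.3 CPM alone, without overlap, with 1.76 ± 0.36 (adjusted p = 0.0911). Against co-culture 0 members were called (beside 0.0157% of genes), with 0 at an unadjusted p under 0.05 and 0 by DESeq2. The last 2 counts have no share of all genes beside them and are not read as results about the members. Hk2, called lower with BMS493 in macrophages, was at 9.28, 28.8 and 35.0 CPM in PDPN+ cells with BMS493 and 18.9, 34.6 and 70.1 CPM in co-culture, with -0.78 ± 0.57 (adjusted p = 1.0). Whether the 2 cell types differed in this was not tested.

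In PDPN+ cells replicate 3 was the highest of its group for 22 of 34 members in co-culture (38.2% of all genes above 1 CPM), 29 of 34 in transwell culture (36.9%), 28 of 34 with BMS493 (39.8%) and 13 of 34 in cells cultured alone (38.3%). With all 12 libraries 0 members passed the test of batch mbb340 (beside 0.0679% of genes), with 16 higher (beside 6.54% of genes) and 1 lower at an unadjusted p under 0.05, and 11 by DESeq2 (beside 6.97%). Without the 2 libraries that stood apart 13 were called, all higher, beside 9.53% of genes, among them P4ha2 (3.72-fold, adjusted p = 0.00643), Hif1a (2.86-fold, adjusted p = 0.00676) and Slc16a3 (2.93-fold, adjusted p = 0.0147).

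Cultured alone, the 2 cell types differed in 12 of 33 members, beside 38.9% of 20987 genes, so the members were called about as often as genes at large. PDPN+ cells had more Eno2, Egln3 and Ndrg1 and less Hk1, Hk2, Pfkl, Pfkfb3, Pfkfb4, Aldoa, Ankrd37, Car9 and Mxi1. Ndrg1 was at 51.2, 41.3 and 31.3 CPM in PDPN+ cells and 1.08, 1.41 and 2.86 CPM in macrophages, 22.6-fold (log2 4.5 ± 0.67 SE, adjusted p = 1.23e-05) higher. Eno2 was at 18.1, 16.1 and 5.57 against 0.243, 1.43 and 2.31 CPM, 9.63-fold (log2 3.27 ± 1.0 SE, adjusted p = 0.0122) higher. Pfkfb4 was at 4.14, 5.92 and 7.67 against 61.0, 46.7 and 65.0 CPM, 9.95-fold (log2 -3.31 ± 0.30 SE, adjusted p = 1.27e-08) lower. Ankrd37, below 20 CPM in both, was 6.88-fold (log2 -2.78 ± 0.55 SE, adjusted p = 2.89e-04) lower, and Ndufa4l2 was at least 21.7-fold higher, a value with no test here. Hk2 was 2.74-fold (log2 -1.46 ± 0.44 SE, adjusted p = 0.0107) lower and Aldoa 2.16-fold (log2 -1.11 ± 0.23 SE, adjusted p = 5.50e-04) lower. Without the 2 PDPN+ libraries that stood apart 9 members were called (37.0% of genes), and without PDPN+ alone replicate 3 it was 6 (33.3%). The balance of directions depended on these choices. With the 2 libraries left out and the batch as a block 6 members were higher and 6 lower (42.5% of genes), with Tpi1 (adjusted p = 0.0267), P4ha1 (0.0209) and P4ha2 (0.0119) added as higher and the calls of Hk1, Pfkfb3 and Car9 lost. The Hk2 call was lost without macrophages alone replicate 3 (0.0545) or batch mbb339 (0.104) and the Eno2 call without macrophages alone replicate 1 (0.0591), batch mbb336 (0.127) or batch mbb339 (0.114). Aldoa lost its call without batch mbb339 (0.0768) and in a fit of the 2 groups alone (0.0558). The calls of Hk1, Pfkl, Pfkfb3, Egln3, Car9 and Mxi1 were each lost without 2 or more of the libraries in turn, with adjusted p-values of up to 0.189 for Hk1.

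The effect of co-culture on the members was not shown to differ between the cell types in the fit of all libraries. The test of the difference called 0 members (beside 0.986% of genes), with 1 higher and 1 lower at an unadjusted p under 0.05, Car9 at 1.88 ± 0.76 (adjusted p = 0.333) and Egln3 at -2.07 ± 0.87 (adjusted p = 0.362). Without batch mbb340, Egln3 was called, beside 1.53% of genes, with an effect in PDPN+ cells minus that in macrophages of -2.66 on the log2 scale (adjusted p = 0.0277). Egln3 was also called with the batch as a block and the libraries that stood apart left out, at -2.58 (adjusted p = 0.0388), beside 1.84% of genes. For Hk2 the difference of effects was 0.29 ± 0.61 (adjusted p = 0.934). For transwell culture the same test also called 0 members (beside 0.0% of genes), with 0 at an unadjusted p under 0.05.

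Other genes of these pathways were taken from 4 lists chosen for their role. In macrophages cultured alone against ex vivo, 17.8% of all genes were called, 9.31% higher and 8.5% lower, the shares to set beside these list counts. There 3 of 20 tested other glycolysis and pyruvate genes were higher and 0 lower. Among them were Ldhb, the lactate dehydrogenase that favours pyruvate (5.45-fold, adjusted p = 0.00266), and the mitochondrial pyruvate carrier Mpc1 (2.69-fold, adjusted p = 4.79e-04). Of 8 pentose phosphate genes 3 were higher, among them Pgd (3.60-fold, adjusted p = 2.57e-05). Of 17 citric acid cycle genes 1 was lower, Suclg2 (2.09-fold, adjusted p = 2.39e-04), and 0 higher. Of 25 other HIF pathway genes 5 were higher and 2 lower, among them the heme oxygenase Hmox1 (11.2-fold higher, adjusted p = 5.94e-04).

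In co-culture against alone, 1 of 25 other HIF pathway genes reported here rose in macrophages, beside 0.698% of all genes called. It was Ppp1r3b, a glycogen-targeting subunit (3.01-fold, adjusted p = 0.0286). The other 3 lists had 0 calls there. Their list medians were -0.06 for glycolysis and pyruvate, -0.13 for pentose phosphate and -0.06 for citric acid cycle genes, against 1.01 for the 33 members and 1.1 for the other HIF pathway genes. With BMS493 against co-culture 1 of the other HIF pathway genes fell, beside 0.85% of all genes called. It was Epas1, which encodes another HIF alpha subunit (4.86-fold, adjusted p = 0.0180). In PDPN+ cells the 4 lists had 0 calls in each of the 5 comparisons between culture conditions, where at most 0.24% of all genes were called.

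Egln1, the main oxygen sensor, had log2 fold changes of 0.43 ± 0.32 (adjusted p = 0.398) for macrophages alone against ex vivo, -0.12 ± 0.32 (adjusted p = 0.910) for macrophages in co-culture against alone and 0.41 ± 0.67 (adjusted p = 0.821) for PDPN+ cells in co-culture against alone. Bnip3l had 0.28 ± 0.18 (adjusted p = 0.310), -0.03 ± 0.18 (adjusted p = 0.962) and -0.43 ± 0.32 (adjusted p = 0.604) in the same order, and Higd1a 0.52 ± 0.50 (adjusted p = 0.543), 0.27 ± 0.50 (adjusted p = 0.870) and 0.73 ± 0.53 (adjusted p = 0.605). Pdk1, which restrains entry of pyruvate into the citric acid cycle, was at 68.6, 22.0 and 92.4 CPM in macrophages alone and 198, 212 and 146 CPM in co-culture, with 1.56 ± 0.42 (adjusted p = 0.110). None of these 4 passed the test in the comparisons between groups.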

How the data were processed

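PolyA RNA of 30 libraries was sequenced. The deposited tables hold, per the file headers, the authors' counts of uniquely aligning reads per gene and their size-factor-adjusted RPKM. GSNAP and GRCm38 are named, per the submitters' processing notes. For the annotation and strand setting the sources used here give nothing. Antisense and overlapping genes may share reads.

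Counts were tested with edgeR 4.0.16 (quasi-likelihood, TMM factors, filterByExpr by group, Benjamini-Hochberg over all genes tested, threshold 0.05) in R 4.3.3, with limma 3.58.1 loaded, fitting the 18 macrophage libraries, the 12 PDPN+ libraries, and all 30 for contrasts between cell types. Apart from the tests of batch mbb340, these fits had group alone as a term. CPM values are TMM-scaled. Ndufa4l2 was left out of member counts in fits with macrophages, where it passed the filter only through groups in which it is high. The genes were described in full where called and at a mean of 10 CPM or more in the higher group, up to 6 per direction. DESeq2 1.42.0, RLE factors, no filter, a replicate block, the compared groups alone, and omission of each library or batch were alternatives. Leaving out the PDPN+ libraries that stood apart was chosen after seeing the data. The members and lists were chosen with earlier results of these data known, and 1 gene of the list of other HIF pathway genes is not reported here and not counted. IDs without a symbol held 0.0358% of counts.

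The replicate number pairs libraries because the labels' batch tag is shared. Deviations of same-numbered libraries correlated at a median of 0.41 in macrophages (36 of 45 pairs above 0.1) and 0.25 in PDPN+ cells (15 of 18). The replicates of no group agreed within sampling noise. The fit was tested on simulated data. In macrophages alone against ex vivo it recovered 74% of genes changed 4-fold and 13% of those changed 2-fold, among 17189 genes.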

Additional observations from a re-analysis of the deposited data

How the results depend on the processing

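Of 942 alternative values for the 78 member calls, 0 reversed direction and 218 missed the threshold. DESeq2 kept 78 of 78 calls, RLE factors 77 of 78, no filter 69 of 78, the replicate block 61 of 62 and a fit of the compared groups alone 45 of 62, and 33 of 62 were kept whichever library was left out. The cause of the changes below was not tested. A bracketed percentage is the share of all genes called in that setting. A count with none beside it is not read as a result about the members. In macrophages alone against ex vivo the groups-alone fit called 7 members. For ATRA against alone DESeq2 called 2 and the replicate block 2 (0.805%), and RLE factors, no filter and the groups-alone fit 0. For co-culture against alone DESeq2 called 9 (3.96%), the block 12 (2.41%) and groups alone 0 (0.00654%). For transwell against alone DESeq2 called 5 (1.46%) and the block 1 (0.129%). For BMS493 against co-culture DESeq2 called 3, the block 3 (1.8%) and groups alone 0, and against alone 4, 5 (2.32%) and 0. In PDPN+ cells DESeq2 called 4 in co-culture (1.81%), 1 in transwell culture (0.0836%) and 5 with BMS493 (3.64%), each against alone, and 11 for batch mbb340 (6.97%). No filter (0.0892%) and groups alone (0.195%) each called 1 in co-culture. Without the PDPN+ libraries that stood apart, BMS493 against alone had 0 calls, 2 with the block (1.22%), batch mbb340 had 13 (9.53%), and the co-culture difference between cell types had 1 with the block (1.84%).

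Leaving out 1 library gave 8 to 13 calls for alone against ex vivo, 0 to 2 for ATRA, 0 to 10 for co-culture, 0 to 1 for transwell, 0 to 4 for BMS493 against alone, 0 to 2 for BMS493 against co-culture, 9 to 13 for ATRA and 12 to 16 for co-culture against ex vivo, 6 to 11 between cell types, and 0 for PDPN+ BMS493 against alone. Leaving out 1 batch gave 5 to 18, 0 to 4, 0 to 18, 0 to 11, 0 to 13, 0 to 4, 5 to 17, 7 to 18, 3 to 13 and 0 to 1 in the same order, and 0 to 1 for the co-culture difference. The replicate block otherwise moved no count of calls by over 1.5 times. The share of all genes called moved with these omissions too. For macrophages in co-culture against alone it was 0.0% to 5.15% when leaving out 1 batch. These ranges of counts are therefore not read as results about the members.

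In the simulated counts, with 100 genes changed at each fold, changes of 2-fold were rarely recovered. Those of 4-fold mostly were not in PDPN+ cells. In the measured counts of macrophages alone against ex vivo 17.8% of genes were called. The simulated rates are therefore not a detection limit of these comparisons.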
